A study of Mus musculus with 35 samples.

Results

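The genes of the cytosolic ribosomal proteins, 79 of the 49568 gene names in the count tables, were followed across fed and fasted mouse hypothalamus. They were chosen by name and mean count, with earlier results of these data known. Taken were symbols of the form Rpl or Rps followed by a number and at most 1 letter, plus the stalk genes Rplp0, Rplp1 and Rplp2 and Rpsa. A mean of at least 10 counts over the 35 libraries was required. Of 82 matching names, 3 fell below that mean, Rpl10l at 0, Rpl39l at 1.09 and Rpl3l at 8.29, and the lowest member, Rpl24, had a mean of 16.3. The members divide into 47 genes of the large subunit and 32 of the small subunit, and all 79 passed the filter on low counts. All mice were male, of strain B6/J, with hypothalamus taken at Zeitgeber time 16 (ZT16, hours counted from lights on), and polyadenylated RNA was sequenced as paired reads of 150 bases. Controls were either fed freely (ad libitum) or kept without food for 16 h from ZT0, with 10 libraries each. Mice labelled Per2 ko, a knockout of the clock gene Per2, were fasted in the same way (n = 5). PER2-S662D mice, with aspartate in place of a serine of the PER2 protein, were either fed (n = 5) or fasted (n = 5). How the 2 alleles were made is not given in the sources used here. The labels do not say that each library came from a separate animal, so p-values set group differences against the spread between these libraries.

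A ribosome joins a large and a small subunit, each built from ribosomal RNA and a fixed set of proteins that are mostly needed in equal numbers. The genes of these proteins are among the most abundantly transcribed in most cells, and their mRNAs mostly begin with a C followed by a run of pyrimidines, the 5′ terminal oligopyrimidine (TOP) motif, through which nutrient and growth signals acting on the kinase mTOR control their translation. Levels of mRNA, which is what was counted here, therefore need not follow the rate at which the proteins are made.

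The start sites of 8 members that recur in the results are shown, so that starts with and without the letters CTTTC can be compared. Each sequence runs 5′ to 3′ on the gene's own strand from 10 bases before to 20 bases after the start listed by RefSeq (GRCm38.p6), and capitals mark CTTTC. The first 5 hold CTTTC in this window and the last 3 do not. A window without CTTTC can still hold another run of pyrimidines, as that of Rps9 does.
Rpl12, chr2:32961702-32961731, plus strand: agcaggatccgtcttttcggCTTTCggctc
Rpl27a, chr7:109519185-109519214, plus strand: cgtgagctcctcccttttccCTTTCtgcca
Rplp2, chr7:141447641-141447670, plus strand: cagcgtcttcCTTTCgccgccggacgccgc
Rpl38, chr11:114668570-114668599, plus strand: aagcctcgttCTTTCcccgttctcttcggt
Rpl35, chr2:39005112-39005141, minus strand: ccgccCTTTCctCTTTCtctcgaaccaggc
Rps9, chr7:3704031-3704060, plus strand: cttgtctctctttgtctcgggcctgagttc
Rps28, chr17:33824543-33824572, minus strand: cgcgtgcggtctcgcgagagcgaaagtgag
Rps4x, chrX:102189372-102189401, minus strand: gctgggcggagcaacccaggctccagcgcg
Of the 79 members, 57 had an entry in the RefSeq table. Within 50 bases on either side of the listed start, CTTTC stood on the gene's strand in 31 of them (54.4%), against 14.6% of 27025 genes of the table, and on either strand in 36 (63.2%), against 26.2%. The ETS-type motif CGGAAG, searched on both strands in the same window, was found in 23 of the 57 members (40.4%), against 10.4% of all genes. A match is a description of these letters, and the listed start need not be the start used in hypothalamus.

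Most members stood at high mRNA levels. Their median level, in CPM (counts scaled to a common library total) per kilobase of exon, averaged over the 35 libraries, was 90.8, against 4.05 for all 18063 genes tested, with medians of 86.9 for the large and 102 for the small subunit. The highest were Rplp1, an acidic protein of the stalk that recruits elongation factors, at 708, then Rpl17 at 359, Rps15 at 351, Rpl8 at 342 and Rps12 at 335. The other stalk genes were lower on the same scale, Rplp0 at 117 and Rplp2 at 51.2. The length used is that of all annotated exons of a gene, so these ranks depend on the annotation. It was 499 bases for Rplp1 and 2072 for Rplp2, whose coding lengths are 342 and 345 bases. Without division by length Rplp1 stood at 353, Rplp0 at 194 and Rplp2 at 106 CPM. The lowest 5 were Rpl35a at 24.5, Rps27l at 11.5, Rpl13a at 6.91, Rpl6l at 5.59 and Rpl24 at 0.753. Rpl35a, with 3526 annotated exon bases for a coding length of 330, stood at 86.3 CPM without division by length.

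**Figure D1:**
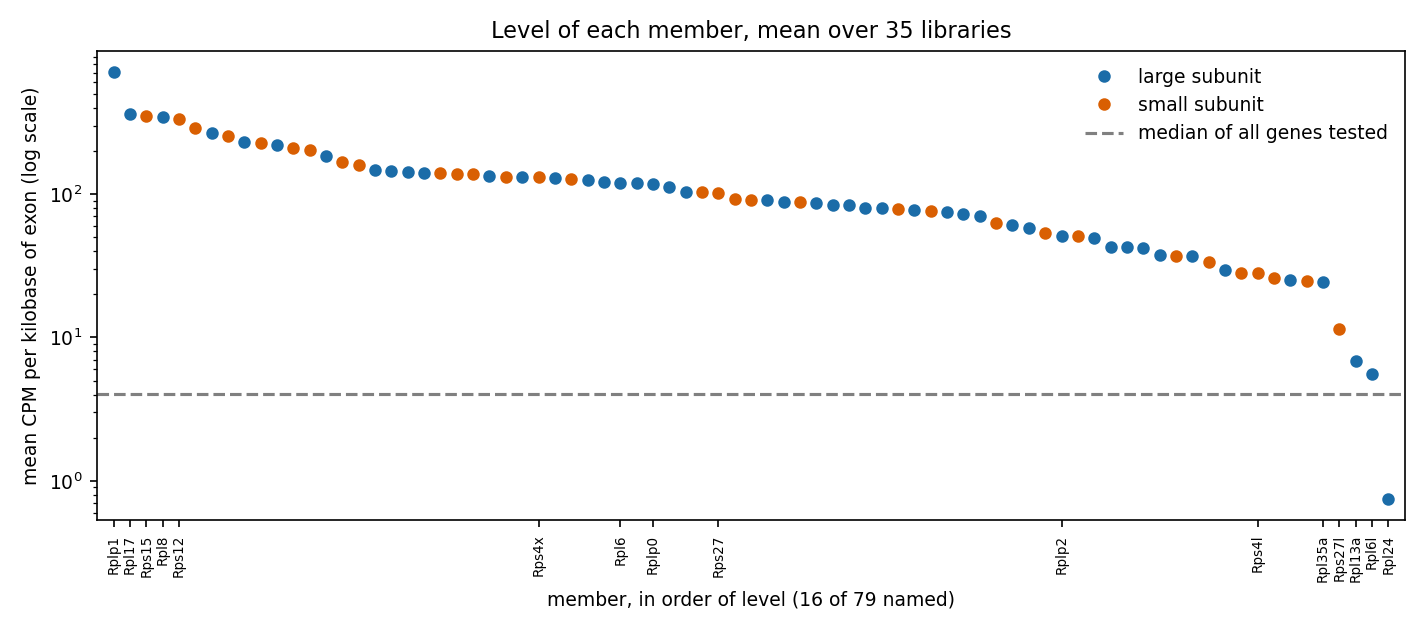
Mean CPM per kilobase of exon (log scale) of each of the 79 members over 35 libraries, in descending order and with 16 of them named, with the large and the small subunit in separate colours and the median of all genes tested as a dashed line at 4.05. Most members lie between about 25 and 360, with Rplp1 above at 708 and Rps27l, Rpl13a, Rpl6l and Rpl24 below.

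The paralogs held different ranks. Rps4x, the X-linked gene of a small subunit protein, stood at 131 CPM per kilobase and its relative Rps4l at 28.3, and Rps27 stood at 101 against 11.5 for Rps27l. Rpl6 was at 120 and its relative Rpl6l at 5.59. These levels carry the way the reads were counted: reads matching several places were counted, strand was not used, and reads shared by overlapping genes are counted for neither. The coding sequence of Rpl24 lies to 83.4% within exons of Gm28037, an annotated gene with a mean of 0 counts, and that of Rpl13a to 97.5% within exons of Flt3l and Mir5121, so the low values of these genes are uncertain. Similarly, 55.3% of the coding sequence of Rpl23a lay within Tlcd1 and 28.5% of that of Rpl35 within Wdr38. Among the 77 members whose transcripts could be compared, a median of 35.1% of their 50-base words also occurred in other genes. The highest share was 85.5%, in Rpl36a, and 20 members shared over 50%. Part of the counts of such members may come from reads of other genes, which was not measured. Rps4l and Rpl6l were not among the 77, so their sharing of words with other genes is not known.

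Total counts ranged from 17959586 to 37027342 per library. Per2 stood at 28.2 to 33.4 CPM with a median of 29.5 in the libraries labelled Per2 knockout, overlapping the fasted controls at 26.1 to 33.1 with a median of 29.0, so its count gives no support to that label, and whether the deposited counts cover the deleted part is not given in the sources used here. It was lower in the PER2-S662D libraries, at 16.9 to 21.4 CPM fed and 16.4 to 22.7 CPM fasted. All 10 markers of hypothalamus, among them Agrp, Pomc, Hcrt and Oxt, had counts in every group, with sums from 507 to 754 CPM per library. Sums of 3 thalamus markers were about as high, at 498 to 763 CPM. Those of 5 choroid plexus markers varied widely, from 17.5 to 1566 CPM. How evenly the tissue was dissected, and the part of this in the members' values, was not tested. Library numbers in the file headers form separate ranges for control replicates 1 to 5, for the libraries labelled knockout, for control replicates 6 to 10 and for PER2-S662D, so genotype and range cannot be told apart. Replicates 2, 3 and 4 of both PER2-S662D groups carry an additional final digit in their library number, whose meaning the headers do not state.

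Together the 79 members took between 1.14% and 1.60% of all counts in a library. In fed controls the share was 1.46%, 1.42%, 1.49%, 1.49% and 1.47% in replicates 1 to 5 and 1.37%, 1.30%, 1.26%, 1.16% and 1.45% in replicates 6 to 10. In fasted controls the order of the sets was turned, with 1.43%, 1.28%, 1.34%, 1.26% and 1.19% in replicates 1 to 5 and 1.32%, 1.39%, 1.49%, 1.56% and 1.50% in replicates 6 to 10. Over all 10 libraries fed and fasted controls were alike, at 1.39% ± 0.114 and 1.38% ± 0.118 (SD, n = 10 each).
The libraries labelled knockout held 1.60%, 1.37%, 1.52%, 1.32% and 1.29%. The fed PER2-S662D libraries held 1.38%, 1.14%, 1.17%, 1.15% and 1.41%, and the fasted ones 1.40%, 1.39%, 1.16%, 1.24% and 1.44%. The 3 fed PER2-S662D libraries with the additional digit were among the 5 lowest of all 35. Of these, replicates 2 and 4 lay below every fed control, and replicate 3 lay above fed control replicate 9 only. The other 2 lay well within the range of the fed controls.

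**Figure D2:**
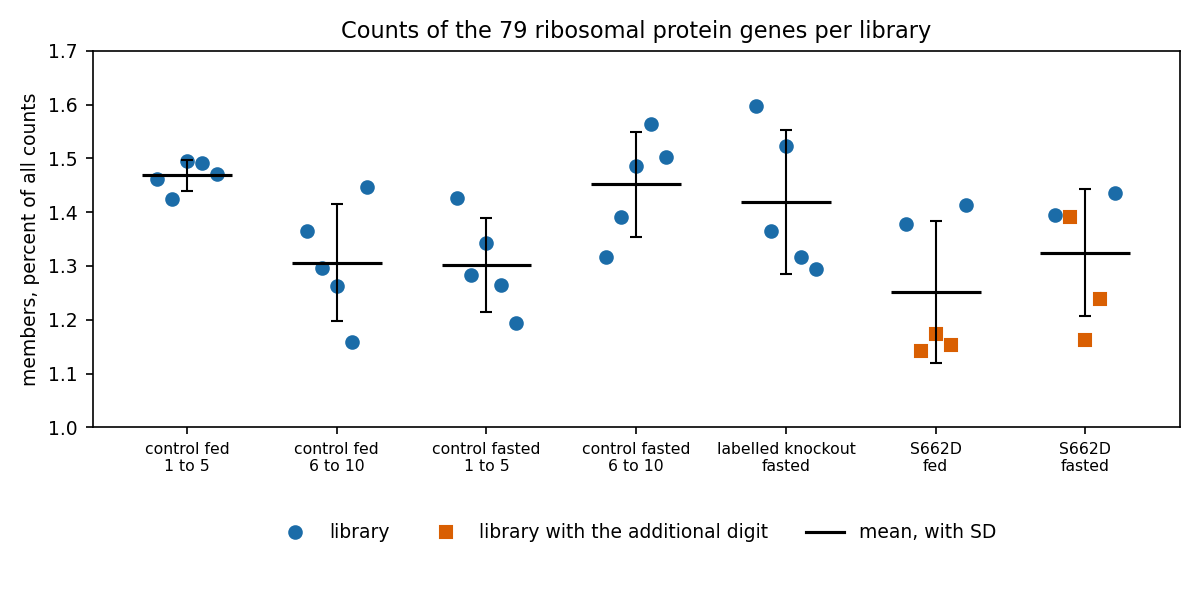
Percent of all counts that fell on the 79 members in each library (points), with the mean and SD of each group, the controls shown by set of replicates and squares marking the libraries with the additional digit. Fed controls 1 to 5 and fasted controls 6 to 10 are high, fed controls 6 to 10 and fasted controls 1 to 5 are lower, and 3 fed PER2-S662D libraries lie between 1.14% and 1.17%.

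In many libraries most members lay on the same side of their own median over the 35 libraries. Members above it numbered 72, 57, 75, 75, 71, 28, 6, 7, 0 and 69 of 79 in fed controls 1 to 10 and 66, 2, 26, 5, 9, 6, 44, 69, 78 and 76 in fasted controls 1 to 10. They numbered 77, 44, 79, 23 and 9 in the libraries labelled knockout, 32, 1, 1, 1 and 45 in fed PER2-S662D and 57, 60, 2, 3 and 68 in fasted PER2-S662D. Over all genes the same share stayed between 46.6% and 50.2% in every library. The 3081 pairs of members had a median correlation of 0.78 over the 35 libraries, and 99.4% of pairs were above 0. Members called, or lying on the same side of 0, are therefore not independent of each other. Nuclear genes of oxidative phosphorylation moved alongside: the median level over the 79 members (log2 of CPM + 0.5), against their mean over all libraries, was -0.27 in fed control replicate 9 and 0.19 in fasted control replicate 9, and that over the 71 oxidative phosphorylation genes was -0.33 and 0.23. Whether the movement of the members differed from that of other gene groups was not tested.

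The 16-h fast in control mice was asked about with all 20 control libraries. No difference between fed and fasted controls could be called for any member, of either subunit. The members' median log2 fold change was -0.01, with 33 above and 46 below 0, against 0.00 for all genes. By the quasi-likelihood test of edgeR, adjusted by the Benjamini-Hochberg method, 0 of 79 members were called at an adjusted p under 0.05, where 3.88% of all genes were called, DESeq2 called 0, and 1 member had an unadjusted p under 0.05 (13.3% of all genes). That member was Rps4l, at 0.12 with an adjusted p of 0.359. The stalk genes stood at 0.01 for Rplp0, 0.01 for Rplp1 and -0.01 for Rplp2, and Rps6, the small subunit protein phosphorylated downstream of mTOR, at 0.02. Of 18 regulators of growth that bear on ribosomal protein synthesis, Ddit4 and Sesn1, which restrain mTOR, rose by 0.93 and 0.35 on the log2 scale in the same fit (adjusted p = 5.52e-07 and 2.11e-06).

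In PER2-S662D mice fasting left 78 of 79 members at a positive log2 fold change, with a median of 0.13 against 0.00 for all genes, and none was called. The edgeR test called 0 members against a background of 2.64%, DESeq2 called 0, 13 members had an unadjusted p under 0.05 (14.3% of all genes), and the lowest adjusted p was 0.173, for Rpl6. Rpl6 stood at 382, 302, 307, 304 and 373 CPM fed and at 362, 379.9, 346, 362 and 383 CPM fasted, where the 3 low values are all fed libraries with the additional digit. The response to fasting in PER2-S662D minus that in controls had a median of 0.13 over the members. In that difference 0 members and 0% of all genes were called by edgeR, DESeq2 called 0 members, and 4 members had an unadjusted p under 0.05 (6.37% of all genes). Against controls 1 to 5 alone the difference had a median of 0.28 with 6 members called, and against controls 6 to 10 alone a median of -0.04.

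In fed mice 7 ribosomal protein genes were lower in PER2-S662D than in control hypothalamus and none was higher. They were Rpl5, Rpl6, Rpl7, Rpl12 and Rpl17 of the large subunit and Rps4x and Rpsa of the small subunit. Rpl5 binds 5S ribosomal RNA, Rpl12 lies at the base of the stalk, and Rpsa also serves as a laminin receptor. The 7 made up 8.86% of the members, against 1.57% of all genes called lower and 4.69% called in either direction, and the members' median log2 fold change was -0.14 against -0.01 for all genes. Below 0 were 77 of 79 members, and 35 had an unadjusted p under 0.05 (21.0% of all genes). Other genes with short coding sequences were also lower. In coding-length classes of up to 250, 350, 450, 600 and 900 bases and above 900 bases, their medians were -0.07, -0.09, -0.08, -0.05, -0.04 and 0.02. Those of the members were -0.19, -0.14, -0.14, -0.15, -0.14 and -0.13. The part of coding length in the members' values was not tested. In bulk tissue, fewer cells of a type and less RNA per cell cannot be told apart.

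Rpl7, at chr1:16101295-16104662 on the minus strand (mm10), ranged from 221 to 259 CPM with a median of 237 in fed controls and stood at 227, 195, 198, 187 and 225 CPM in fed PER2-S662D libraries 1 to 5. Its log2 fold change was -0.21 with an SE of 0.044 and an adjusted p of 0.00534 by the quasi-likelihood test of edgeR with the Benjamini-Hochberg method. Replicates 2, 3 and 4 were below every control, and replicates 1 and 5 lay inside the control range. The same division was seen in Rpl6, at chr5:121204481-121209241 on the plus strand, with 362 to 399 CPM and a median of 384 in fed controls against the PER2-S662D values given above. Rpl6 had a log2 fold change of -0.19 (SE 0.044, edgeR adjusted p = 0.00857). Rpl12, at chr2:32961559-32965345 on the plus strand, ranged from 138 to 165 CPM with a median of 156 in fed controls and stood at 149, 117, 123, 119 and 145 CPM in the mutant. Its log2 fold change of -0.24 was the lowest of the 7 (SE 0.058, edgeR adjusted p = 0.0148).

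Rps4x, at chrX:102184941-102189394 on the minus strand, ranged from 204 to 233 CPM with a median of 219.7 in fed controls and stood at 214, 176, 179, 172 and 210.3 CPM in fed PER2-S662D. Its log2 fold change was -0.21 (SE 0.046, edgeR adjusted p = 0.00851). Rpsa, at chr9:120127689-120132369 on the plus strand, ranged from 397 to 451 CPM with a median of 429.6 and stood at 416, 344, 349, 359 and 421 CPM, a log2 fold change of -0.17 (SE 0.047, edgeR adjusted p = 0.0297). In both, replicates 2, 3 and 4 again lay below all 10 controls and the other pair lay within them. Rpl17 stood at -0.23 (SE 0.055, edgeR adjusted p = 0.0127) and Rpl5 at -0.17 (SE 0.045, edgeR adjusted p = 0.0226). In Rpl5, PER2-S662D replicate 1 at 181 CPM was also below the controls, which began at 184 CPM. Rplp0 stood at -0.15 with an edgeR adjusted p of 0.0815, Rps6 at -0.14 with 0.158, and the members farthest from 0 without a call were Rpl39 at -0.33 with 0.112 and Rps27 at -0.32 with 0.161.

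**Figure D3:**
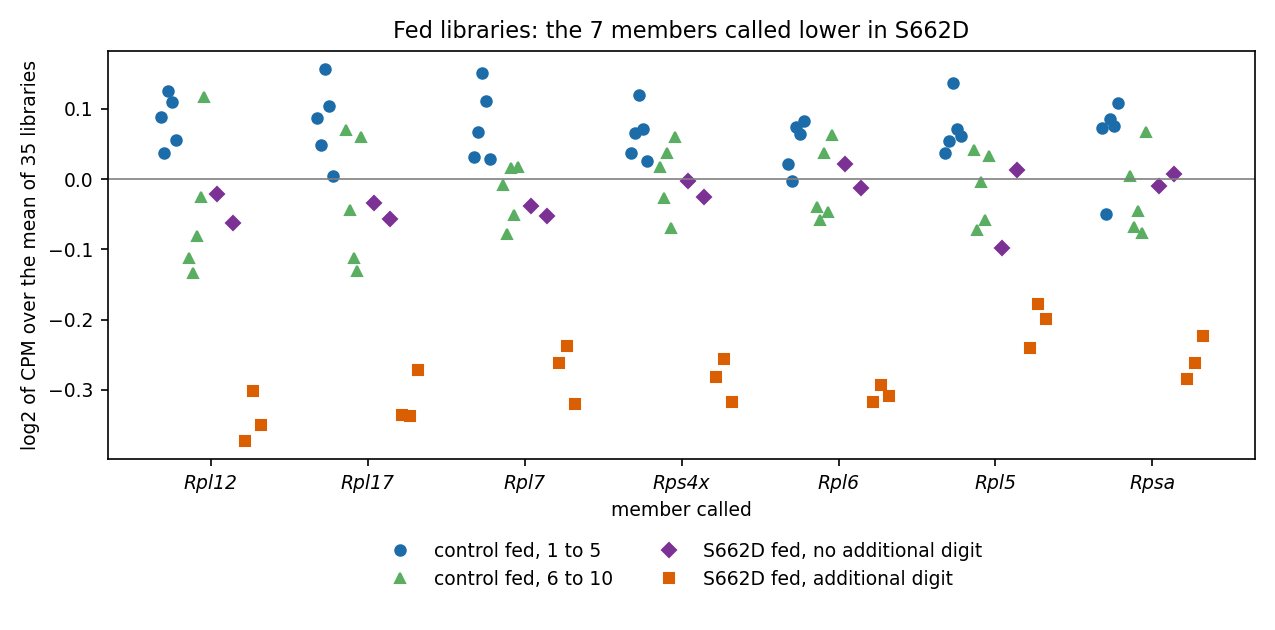
Log2 of CPM over the mean of all 35 libraries for the 7 members called lower in fed PER2-S662D, per fed library, with controls by set and PER2-S662D libraries by the additional digit. The 3 libraries with the digit lie below every fed control in all 7 genes, and the 2 without it lie within or just below the control range.

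The 7 calls rest on those 3 libraries and on the choice of controls. With the 3 digit-carrying libraries alone 40 members were called and the median log2 fold change was -0.24, with the other 2 alone 0 were called and the median was -0.0021, and with the digit as a term of the model 0 were called. Against controls 1 to 5 alone 45 members were called, and against controls 6 to 10 alone 0. The share of all genes called in each subset or left-out setting is not given here. These counts therefore cannot show an effect as particular to the members. Leaving out PER2-S662D replicate 4 left 0 calls, leaving out replicate 2 or 3 left 1, and leaving out replicate 1 or 5 gave 19 or 21; without fed control replicate 9 there were 13. Beside the 1.57% of all genes called lower, other genes of the translation system were also called in fed PER2-S662D. Of 19 translation factors and other genes known for TOP mRNAs 3 fell (Naca by 0.20, Eef1g by 0.15 and Nap1l1 by 0.14 on the log2 scale) and the list's median was -0.10. Of 30 ribosome biogenesis genes 5 fell, among them Rrp9 by 0.37, Npm1 by 0.24 and Ncl by 0.23. Of 77 mitochondrial ribosomal proteins 4 fell, with a median of -0.08, and of 71 nuclear genes of oxidative phosphorylation 6 fell, with a median of -0.11. Among the 6 ribosomal genes outside the naming rule that were listed, 0 were called and the median was -0.15. Whether these shares differed from that of the members was not tested.
Some markers of other cells and the mitochondrial share also differed between these fed libraries, where 4.69% of all genes were called in either direction. Of 3 markers of oligodendrocyte precursors 2 were called higher in PER2-S662D, with sums of 103 to 118 CPM against 86.2 to 96.2 CPM in fed controls, and of 4 endothelial markers 2 were called higher, with sums of 161 to 187 CPM against 148 to 178 CPM. Of Mbp, Mog, Mag and Cnp of oligodendrocytes 0 were called, with sums of 4199 to 5258 CPM against 3998 to 5658 CPM, and no marker of the 3 lists was at 0. Sums of neuronal, astrocyte and microglial markers overlapped between the groups. In fed PER2-S662D they were 4221 to 4327, 1022 to 1138 and 163 to 180 CPM. In fed controls they were 4105 to 4436, 1016 to 1099 and 160 to 186 CPM. Mitochondrially encoded genes took 6.24% to 6.82% of counts in fed PER2-S662D and 6.69% to 7.37% in fed controls. The part of these markers and of that share in the members' values was not tested.

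In fasted mice PER2-S662D and control hypothalamus gave a member median of -0.01. Of the 79 members 0 were called by edgeR, against a background of 5.57%, DESeq2 called 1, and 7 had an unadjusted p under 0.05 (20.8% of all genes). The lowest edgeR adjusted p was 0.0645, for Rps4x, which stood at 199 to 230.5 CPM with a median of 223 in fasted controls and at 199, 213, 190.5, 194 and 199.7 CPM in fasted PER2-S662D. These groups overlapped, with 3 mutant libraries below the lowest control, of which replicate 1 was within 1 CPM of it. Fed and fasted contrasts of PER2-S662D share no library.

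The libraries labelled Per2 knockout, all fasted, gave no called member against the fasted controls. The members' log2 fold changes ran from -0.09 to 0.20, the highest that of Rps27, whose edgeR adjusted p was 0.867. The median log2 fold change over the members was 0.06, with 74 of 79 above 0. The edgeR test called 0 members against a background of 0.0277%, DESeq2 called 0, and 2 members had an unadjusted p under 0.05 (6.07% of all genes). Against fasted PER2-S662D, 5 members were higher in the libraries labelled knockout, 6.33% of the members against 2.61% of all genes called higher, with a median of 0.08 over the members and 0.01 over all genes.

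Those 5 were Rpl7 and Rpl17 of the large subunit and Rps4x, Rps15a and Rpsa of the small subunit. Rps4x stood at 252, 242, 226, 215 and 226 CPM in the libraries labelled knockout against the fasted PER2-S662D values above, a log2 fold change of 0.22 (SE 0.053, edgeR adjusted p = 0.00854). Rpl7 stood at 259.5, 261, 244, 243 and 252 CPM against 215, 237, 215, 210.3 and 225 CPM, a log2 fold change of 0.19 (SE 0.050, edgeR adjusted p = 0.0139). In both genes all 5 labelled knockout libraries were above all 5 PER2-S662D libraries. Rps15a, at chr7:118104372-118116188 on the minus strand, stood at 173, 179.6, 175, 158 and 155 CPM against 148, 143, 143, 145 and 159 CPM, where PER2-S662D replicate 5 lay above 2 labelled knockout libraries. Its log2 fold change was 0.19 (SE 0.055, edgeR adjusted p = 0.029). Rpl17 and Rpsa stood at 0.22 (SE 0.063) and 0.19 (SE 0.054), with edgeR adjusted p of 0.0217 and 0.0263. The count of 5 became 1 without fasted PER2-S662D replicate 4, 2 without its replicate 3 or without labelled knockout replicate 1 or 2, 8 without PER2-S662D replicate 5, 13 with the digit-carrying PER2-S662D libraries alone and 0 with the other 2. This comparison uses the same fasted libraries as the ones before it.

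Within the controls, fasting went with lower ribosomal protein mRNA in replicates 1 to 5 and with higher ribosomal protein mRNA in replicates 6 to 10, while the median over all 20 libraries was near 0. This division of the controls by the range of their library numbers was added after seeing the data. The p-values given for it are therefore descriptions and cannot establish a difference between the sets. In replicates 1 to 5, 23 of 79 members fell, 29.1% against 7.14% of all genes called lower, and 77 were below 0 with a median of -0.18. Among the called members the largest falls were those of Rps19 at -0.35, Rpl36a at -0.34, Rpl27 at -0.34 and Rpl11 at -0.29, while Rps29 at -0.62, Rps28 at -0.55 and Rpl38 at -0.52 lay further from 0 without a call (edgeR adjusted p = 0.0806, 0.0565 and 0.0863). In replicates 6 to 10, 7 members rose, 8.86% against 3.75% of all genes called higher, and all 79 were above 0 with a median of 0.16. The 7 were Rpl19, Rpl27a, Rpl36a and Rplp1 of the large subunit and Rps9, Rps12 and Rps16 of the small subunit. All-gene medians were 0.00 and 0.01. The difference between the responses, tested as an interaction in a fit of the 20 control libraries, was called for 58 of 79 members, all of them higher in replicates 6 to 10 (35 large and 23 small subunit genes). That was 73.4% of the members against 8.69% of all genes called higher, with a median of 0.33 for the large and 0.32 for the small subunit and 0.01 for all genes.

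The members with the largest difference encode some of the smallest ribosomal proteins. Rps29, a zinc-binding protein of the small subunit at chr12:69157722-69159186 on the minus strand, stood at 112, 110.2, 111, 118 and 92.6 CPM in fed controls 1 to 5 and at 91.9, 67.0, 76.4, 62.4 and 57.4 CPM in fasted controls 1 to 5. In controls 6 to 10 the same gene stood at 81.1, 75.7, 49.9, 50.6 and 101 CPM fed and at 68.9, 70.3, 115, 131 and 139 CPM fasted. The fed libraries were above all fasted ones in that set, and in the later set of replicates 6 to 10 the groups overlapped with 3 fasted libraries above all fed ones. The difference in log2 fold change was 1.17 (SE 0.319, edgeR adjusted p = 0.0192), and neither response was called within its own set. Rps28, at chr17:33819027-33824562 on the minus strand, stood at 61.2, 55.4, 66.3, 63.0 and 52.3 CPM fed and 55.4, 37.8, 38.0, 38.2 and 33.9 CPM fasted in replicates 1 to 5. In replicates 6 to 10 it stood at 47.4, 43.2, 32.3, 31.7 and 54.4 CPM fed and 40.5, 42.0, 57.6, 62.8 and 69.9 CPM fasted, again with 3 fasted libraries above all fed ones. Its difference was 0.94 (SE 0.258, edgeR adjusted p = 0.0202). Rpl36, Rpl37 and Rpl38 of the large subunit followed at 0.91, 0.90 and 0.85.

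Of the 7 members that rose in replicates 6 to 10, Rpl27a, Rpl36a, Rplp1 and Rps9 were called within both sets, in opposite directions. Rplp1, of the stalk, at chr9:61913284-61914542 on the minus strand, stood at 379.9, 376, 396, 390.2 and 380.2 CPM fed and 362, 329.6, 341, 309 and 297 CPM fasted in replicates 1 to 5, with no overlap. In replicates 6 to 10 it stood at 331, 321, 304, 285 and 389.7 CPM fed and 338, 375, 395, 422 and 396 CPM fasted, where fed replicate 10 lay among the fasted values. Rplp1 had a log2 fold change with fasting of -0.23 in replicates 1 to 5 and 0.24 in replicates 6 to 10 (edgeR adjusted p = 0.033 and 0.0422), a difference of 0.47 (SE 0.099, edgeR adjusted p = 0.00338). The other stalk genes had differences of 0.54 for Rplp2 (edgeR adjusted p = 0.0273) and 0.25 for Rplp0 (edgeR adjusted p = 0.00767).

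Rpl27a, at chr7:109519147-109522367 on the plus strand, had the lowest adjusted p for the difference among the members. It stood at 212, 212, 225, 215 and 220.03 CPM fed and 211, 188, 195, 171 and 171 CPM fasted in replicates 1 to 5. In replicates 6 to 10 it stood at 197, 188, 175, 177 and 202 CPM fed and 192, 208, 217, 228 and 219 CPM fasted. Fed and fasted values did not overlap in replicates 1 to 5 and overlapped only by fasted replicate 6 in replicates 6 to 10. Its fasting responses were -0.21 and 0.18 (edgeR adjusted p = 0.00434 and 0.0278), and the difference was 0.39 (SE 0.072, edgeR adjusted p = 0.000606). Rps9, at chr7:3703993-3706897 on the plus strand, responded by -0.23 and 0.23 (edgeR adjusted p = 0.0115 and 0.0233), a difference of 0.46 (SE 0.087, edgeR adjusted p = 0.00103). Rpl36a, on the X chromosome, responded by -0.34 and 0.35 (edgeR adjusted p = 0.0296 and 0.0402), a difference of 0.69, with the reservation that 85.5% of its words occur in other genes. Rps6 differed by 0.25 (SE 0.067, edgeR adjusted p = 0.00975).

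**Figure D4:**
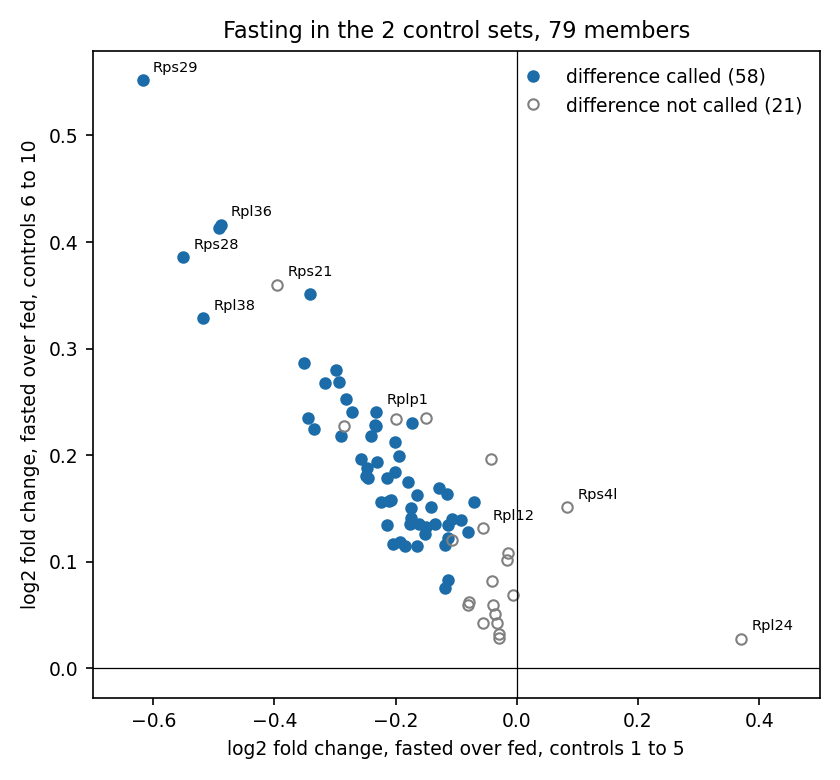
Log2 fold change, fasted over fed, in control replicates 1 to 5 (horizontal) and 6 to 10 (vertical), for each of the 79 members, filled where the difference between the responses was called. Nearly all members lie left of 0 and all lie above 0, with Rps29 farthest from the origin and Rpl24 and Rps4l at the right. The axes share no library.

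The 21 members without a call for the difference included Rps4x, Rpl6, Rps4l, Rpl7, Rps15a, Rpsa, Rpl17 and Rpl5, with differences from 0.06 to 0.10, and Rpl12 at 0.19 (edgeR adjusted p = 0.0581). All 7 genes called lower in fed PER2-S662D were among them, and the fed controls enter both comparisons. Rpl24, at about 1 CPM or less in most libraries, stood at -0.34. The count of 58 ranged from 44, without fasted control replicate 9, to 63, without fed control replicate 10. The 23 members that fell in replicates 1 to 5 became 5 without fasted replicate 5, 7 without fed replicate 3 or 4, 8 without fasted replicate 4, 10 without fed replicate 5 or fasted replicate 2, 12 without fed replicate 1, 15 without fasted replicate 3 and 41 without fasted replicate 1. The 7 that rose in replicates 6 to 10 became 0 without fed replicate 7 or 9 or fasted replicate 9, 1 without fed replicate 8 or fasted replicate 10, 2 without fasted replicate 8, 22 without fasted replicate 6 and 30 without fed replicate 10.

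The sets differed at both feeding states. Among fed controls 7 members were lower in replicates 6 to 10 than in 1 to 5 (8.86% against 1.15% of all genes called lower, member median -0.19), and among fasted controls 12 were higher (15.2% against 5.93% called higher, member median 0.16). With feeding state as a term, replicates 6 to 10 against 1 to 5 gave 0 called members in edgeR against a background of 0.183%, with a median of -0.02 and 3 members at an unadjusted p under 0.05, and DESeq2 was not run on it. Ddit4 rose with fasting in each set, by 0.86 in replicates 1 to 5 and 1.01 in replicates 6 to 10 on the log2 scale (edgeR adjusted p = 0.000829 and 0.00061), and Sesn1 by 0.47 and 0.21.

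The difference was greater in members with shorter coding sequences. In coding-length classes of up to 250, 350, 450, 600 and 900 bases and above 900 bases, the members' median differences were 0.80, 0.51, 0.39, 0.30, 0.23 and 0.19 (6, 11, 19, 18, 19 and 4 members). Other genes in the same classes had medians of 0.24, 0.22, 0.19, 0.12, 0.09 and -0.03. In each class the members' median was above that of the other genes, and both declined with length. Members with and without CTTTC near the start had the same median difference of 0.37, with 21 of 31 and 22 of 26 called, and in fed PER2-S662D against control both had a median of -0.14.

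**Figure D5:**
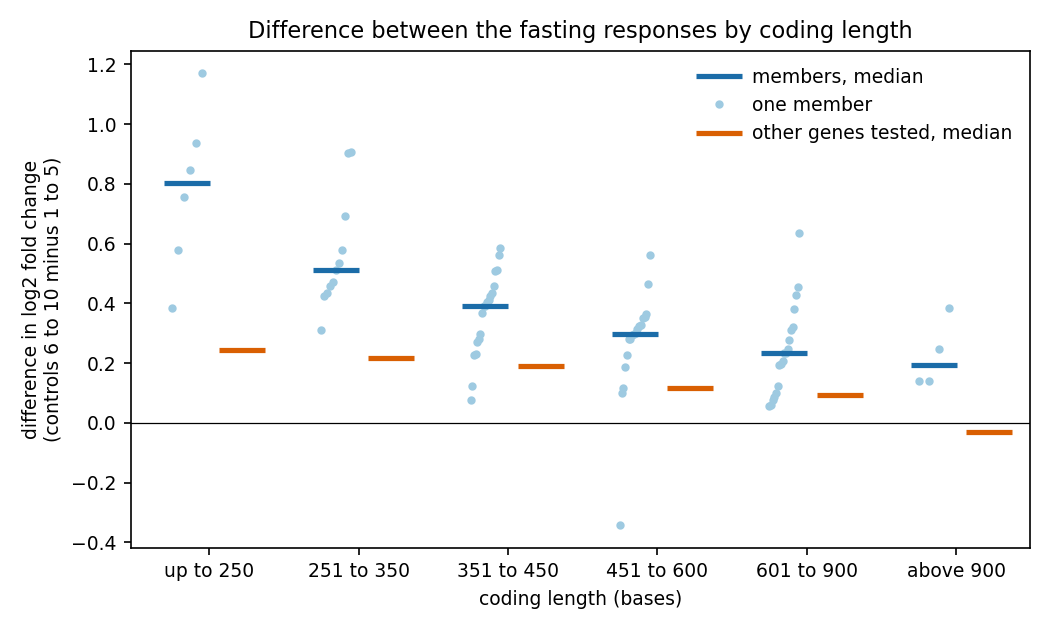
Difference between the fasting responses of control replicates 6 to 10 and 1 to 5 (log2) by class of coding length in bases, with each member as a point and the median of the members and of the other genes tested as bars. Medians of the members descend from 0.80 to 0.19 and those of the other genes from 0.24 to -0.03.

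Among the other gene lists looked at, those of the respiratory chain and the mitochondrial ribosome held many genes called higher in the difference between the control sets, where 8.69% of all genes were called higher and 8.05% lower. Of 71 nuclear genes of oxidative phosphorylation 53 were higher and 0 lower, with a median of 0.41 and with Uqcr11 at 1.20 and Cox5b at 1.05. Of 77 mitochondrial ribosomal proteins 31 were higher and 0 lower, with a median of 0.22. Of the mitochondrially encoded proteins 0 of 13 were higher and 3 lower, with a median of -0.11. Fau, which encodes a small subunit protein joined to a ubiquitin-like protein and falls outside the naming rule, differed by 0.56 (edgeR adjusted p = 0.0112).
Genes of translation and growth control were less uniform. Of 19 translation factors and other TOP genes 4 were higher and 1, Pabpc1 at -0.25, was lower, with a median of 0.05. Of 30 ribosome biogenesis genes 7 were higher, led by Gar1 at 0.61 and Rrp9 at 0.51, and 1 was lower, Polr1a at -0.22. Of 18 growth regulators 4 were lower, Sesn3 at -0.45, Deptor at -0.29, Sesn1 at -0.26 and Mtor at -0.18.

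Markers of oligodendrocytes moved with the members in the control sets. Of Mbp, Mog, Mag and Cnp, 4 of 4 were called higher in the difference, with a list median of 0.49, 4 of 4 fell with fasting in replicates 1 to 5 and 1 of 4 rose in replicates 6 to 10. Their summed level was 4933 to 5658 CPM in fed controls 1 to 5, 3909 to 4701 CPM in fasted controls 1 to 5, 3998 to 5063 CPM in fed controls 6 to 10 and 5003 to 5378 CPM in fasted controls 6 to 10, and no marker was at 0. Of 5 microglial markers 2 were called higher in the difference, with sums of 160 to 177, 128 to 154, 165 to 186 and 159.8 to 187 CPM in the order fed 1 to 5, fasted 1 to 5, fed 6 to 10 and fasted 6 to 10, and none at 0. Of 6 neuronal markers 1 was higher and 2 were lower, with a median of 0.00. Markers of oligodendrocyte precursors went the other way: of 3 in the difference 0 were higher and 2 lower, and 2 of 3 rose with fasting in replicates 1 to 5 and 0 in replicates 6 to 10. Their sums in the same order were 86.2 to 95.6, 99.3 to 114, 86.2 to 96.2 and 81.8 to 99.0 CPM. Of 4 endothelial markers 0 were called in the difference, 1 fell with fasting in replicates 1 to 5 and 2 in replicates 6 to 10, and of 5 astrocyte markers 0 were higher and 1 was lower in the difference. The share of counts from mitochondrially encoded genes was 6.88% to 7.36% in fed controls 1 to 5, 7.27% to 8.70% in fasted controls 1 to 5, 6.69% to 7.37% in fed controls 6 to 10 and 6.81% to 7.29% in fasted controls 6 to 10. The part of these markers and of that share in the members' values was not tested.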

How the data were processed

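Per the submitters' processing notes, reads were aligned to mm10 with STAR 2.7.10b and counted with featureCounts 2.0.1. Per the file headers, the authors deposited raw counts per gene name of GENCODE vM12, with multi-mapping reads counted, read pairs as the input and no strand option. No normalization precedes these counts. Libraries were grouped by their titles. Genes passing filterByExpr (minimum count 10) were fitted with edgeR 4.0.16 (R 4.3.3, limma 3.58.1), robust quasi-likelihood, TMM scaling and 5 group means over 35 libraries, and p-values were Benjamini-Hochberg adjusted over 18063 genes with a threshold of 0.05. A fit of the 20 control libraries (17655 genes) compared the sets of controls. DESeq2 1.42.0, other scalings and filters, subsets and left-out libraries were alternatives, and the fit was tested on simulated data. CPM use TMM-scaled totals. Replicate libraries differed beyond sampling noise in every pair. Coding lengths and 50-base words came from the reference annotation and transcripts of GRCm38. Exon overlap used the exons given with the deposited counts, and the overlap of coding sequences set reference coding sequences against those exons. The members and lists were chosen with earlier results of these data known. Named genes were the called members (at most 10 in each direction), the stalk genes, Rpsa, Rps6, paralogs, the highest and lowest 5 by level, Fau and up to 4 called genes a direction in other lists. The members that did not reach a call, and the choice of examples among those called, were picked after their values were seen. Some genes of the fixed lists are not reported here.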

Additional observations from a re-analysis of the deposited data

Results flagged for a closer look

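The fasting response differed between the 2 sets of control libraries, by a test of that difference: 58 of 79 members were called, and the 10 with the largest difference (log2) were Rps29 at 1.17, Rps28 at 0.94, Rpl36 at 0.91, Rpl37 at 0.90, Rpl38 at 0.85, Rpl36a at 0.69, Rps19 at 0.64, Rpl35 at 0.59, Rpl35a at 0.58 and Rpl41 at 0.58. The sets were formed after seeing the data, so this test describes the difference and cannot establish it.

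A library stood far from the rest of its group in 7 of the 260 groups of values looked at, where chance gives about 1 in 20. Rps15a was at 142 CPM in fasted control replicate 6, with the others at 153 to 164. Rps28 was at 41.1 CPM in fed PER2-S662D replicate 4, with the others at 45.1 to 46.5. Fasted control replicate 5 was low in both Rplp2, at 71.3 CPM against 94.8 to 121, and Rpl8, at 220.4 CPM against 284 to 313. Rps27l was at 14.3 CPM in labelled knockout replicate 1, with the others at 8.28 to 9.39. Rpl10 was at 226 CPM in fed control replicate 9, with the others at 254 to 286. Rpl6l was at 7.64 CPM in fasted control replicate 10, with the others at 3.65 to 5.68.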

How the results depend on the processing

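Among the 18063-gene comparisons with called members, none of the alternatives turned a call to the opposite direction. Fasting in controls, which had no call over both sets, took opposite directions in the sets: Rplp1 and Rpl27a were called lower in replicates 1 to 5 and higher in replicates 6 to 10. The cause of the shifts below was not tested. Counts below are of members only and are not set beside the share of all genes called in the same setting. With control replicates 1 to 5 alone, fasting in controls gave 12 called members and a median of -0.18, the interaction 6 and 0.28, and PER2-S662D fed 45. With replicates 6 to 10 alone the medians were 0.16 and -0.044, and PER2-S662D fed gave 0. With the digit-carrying PER2-S662D libraries alone, fasting in PER2-S662D gave 3, PER2-S662D fed 40, PER2-S662D fasted 7 and labelled knockout against PER2-S662D 13. Without them the second and the last gave 0, with a median of -0.0021 for PER2-S662D fed. The digit as a term gave 1 for fasting in PER2-S662D and 0 for PER2-S662D fed and for labelled knockout against PER2-S662D. Library-size scaling gave 2 for PER2-S662D fasted. Without a filter, labelled knockout against PER2-S662D gave 3 and fasting in controls 6 to 10 gave 21. Fitting the compared groups alone gave 1 for labelled knockout against PER2-S662D. DESeq2 gave 1 for PER2-S662D fasted, 8 for labelled knockout against PER2-S662D, 39 for fasting in controls 1 to 5 and 16 in controls 6 to 10. The median share of counts was 1.65% without the 50 most abundant other genes and 0.109% for members with under 10% shared words.

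Leaving out each library in turn gave 0 to 0 calls for fasting in controls, the interaction and labelled knockout against control, 0 to 1 for fasting in PER2-S662D and for PER2-S662D fasted, 0 to 21 for PER2-S662D fed, 1 to 8 for labelled knockout against PER2-S662D, 5 to 41 for fasting in controls 1 to 5, 0 to 30 in controls 6 to 10 and 44 to 63 for their difference.

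With the replicate number as a block, PER2-S662D fed gave 8 calls, labelled knockout against PER2-S662D 5, fasting in controls 1 to 5 gave 16, in controls 6 to 10 gave 3 and their difference 43, with 0 elsewhere. The numbers are shared only as numbers: deviations of same-numbered fed and fasted controls correlated at -0.35 to 0.10 (1 of 10 pairs above 0.1) and those of PER2-S662D at -0.16 to 0.27 (4 of 5 pairs above 0.1). Depth limits Rpl24, at 0.178 to 1.61 CPM.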
